A study of Homo sapiens with 12 samples.

Results

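Interferon-stimulated genes are the genes that cells switch on when an interferon binds its receptor. The 39 described here were taken by symbol from a list of classical members. This list was chosen with earlier results of these data known, so counts over it are a description and not independent support. All 39 were found among the 36601 genes of the deposited count table. All 39 also passed the filter on low counts, which left 20183 genes for testing. Bulk RNA sequencing had been done on H9, an established human embryonic stem cell line, at days 10, 15, 20 and 25 of a wild-type culture led by cytokines towards γδ T cells, with 3 libraries a day and 1 batch in the labels. The labels name the cells haematopoietic progenitors at day 10, T progenitors at days 15 and 20, and mature γδ T cells at day 25. Before induction the stem cells had been kept on mouse embryonic fibroblast feeders. From day 0 they received STEMdiff APEL2 medium with CHIR99021, BMP4, Activin A and the Rock inhibitor Y-27632, then VEGF, then VEGF with bFGF, and finally VEGF, bFGF, Flt3L, IL-7, SCF and SB431542. From day 10 all cultures were in MEM-α with fetal bovine serum, GlutaMAX, MAP, SCF, IL-7, Flt3L and DLL4, which activates Notch, so the day 10 libraries differ from the later ones in medium as well as in age. No interferon is named among these agents.

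Cells make type I and type III interferons when RNA sensors such as IFIH1 (MDA5) and RIGI (RIG-I) detect viral or misplaced RNA, and interferon-β is the type I form that many cell types release first. Bound receptors activate the Janus kinases, which phosphorylate STAT proteins such as STAT2. With IRF9 these form a complex, ISGF3, that binds the interferon-stimulated response element (ISRE) in promoters, and the genes it turns on block viral replication or damp the signal again. Pluripotent stem cells are known to respond weakly to interferons, and the response is gained as cells differentiate.

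Promoters of many of these genes carry the ISRE, so stretches of 8 are shown, from the RefSeq promoter table for GRCh38.p14, on the strand of the gene. Capitals mark the ISRE letters, GAAA, any 2 bases and GAAA again, or the same read on the other strand, TTTC, any 2 bases and TTTC. Matches cut by the end of a stretch, or outside it, are not marked. The stretches thus mark 2 of the 3 matches in the window for HERC5 and IFIH1, and 1 of 2 for IFI44L. IFIT1, IFIT3, HERC5 and ISG15 are among the members with the largest changes, IFIH1 is a sensor, IFI44 and IFI44L rose again at day 20, and IFITM3 fell while most others rose.
IFIT1: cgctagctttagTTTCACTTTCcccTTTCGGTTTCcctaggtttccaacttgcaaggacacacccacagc
IFIT3: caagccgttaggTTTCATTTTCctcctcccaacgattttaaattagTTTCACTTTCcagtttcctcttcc
HERC5: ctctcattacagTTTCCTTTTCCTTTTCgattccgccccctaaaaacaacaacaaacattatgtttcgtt
ISG15: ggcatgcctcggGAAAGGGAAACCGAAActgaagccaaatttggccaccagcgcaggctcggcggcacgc
IFIH1: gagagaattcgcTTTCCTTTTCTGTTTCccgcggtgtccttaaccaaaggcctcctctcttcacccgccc
IFI44L: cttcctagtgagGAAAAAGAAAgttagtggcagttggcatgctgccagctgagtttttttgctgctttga
IFI44: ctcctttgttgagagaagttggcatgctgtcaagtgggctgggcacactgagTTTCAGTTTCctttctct
IFITM3: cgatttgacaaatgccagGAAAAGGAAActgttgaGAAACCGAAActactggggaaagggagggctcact
The stretches lie before the RefSeq start that each window was built on, and other annotated transcripts of a gene can start further upstream. They are chr10:89392495-89392564 and chr10:89327829-89327898 on the plus strand for the IFIT genes, chr4:88456982-88457051 for HERC5, chr1:1013372-1013441 for ISG15, chr1:78620272-78620341 for IFI44L and chr1:78649719-78649788 for IFI44, all plus, with chr2:162318786-162318855 for IFIH1 and chr11:320861-320930 for IFITM3 on the minus strand.

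The table held 27026196 to 39811230 counts per library. Levels are CPM on library totals scaled by edgeR's TMM factors (0.753 to 1.17), given as mean ± SD over the 3 libraries of a day. Changes are log2 fold changes ± SE from edgeR's quasi-likelihood test, and a call is a Benjamini-Hochberg adjusted p under 0.05 over all genes tested. Whether same-day libraries came from separate cultures is not stated, and p-values then measure the spread among these libraries alone, possibly a technical one. T-cell markers were low for the later labels. The 14 listed summed to 16.6 to 19.0 CPM in the day 25 libraries, and CD3D and CD3G were at 0 there. Their sum was 3.49 to 4.32 CPM at day 10, 28.5 to 31.7 at day 15 and 40.1 to 44.8 at day 20. Of the 8 tested, 6 were higher and 1 lower at day 25 against day 10, beside 38.6% and 36% of all tested genes. Given these low sums, the cells are named by day.

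The interferon-stimulated genes were nearly all highest at day 15. Of the 39, 34 had their highest mean at day 15, 4 at day 20 (TRIM22, IFI44, IFI44L and IFITM2), 1 at day 10 (IFITM3) and none at day 25. Of all tested genes 34% had their highest mean at day 15, 15.1% at day 20, 25% at day 10 and 25.9% at day 25. Their summed level was 2444 to 2498 CPM in the day 10 libraries, 15177 to 15325 CPM at day 15, 2223 to 2284 CPM at day 20 and 1599 to 1641 CPM at day 25. The joint test of the 4 days called all 39, where it called 90.5% of all tested genes. Libraries of a day lay close together, with a median coefficient of variation of 4.87% over genes and days and a highest of 33.5%. In bulk RNA, fewer cells of a type and less RNA per cell cannot be told apart.

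**Figure D1:**
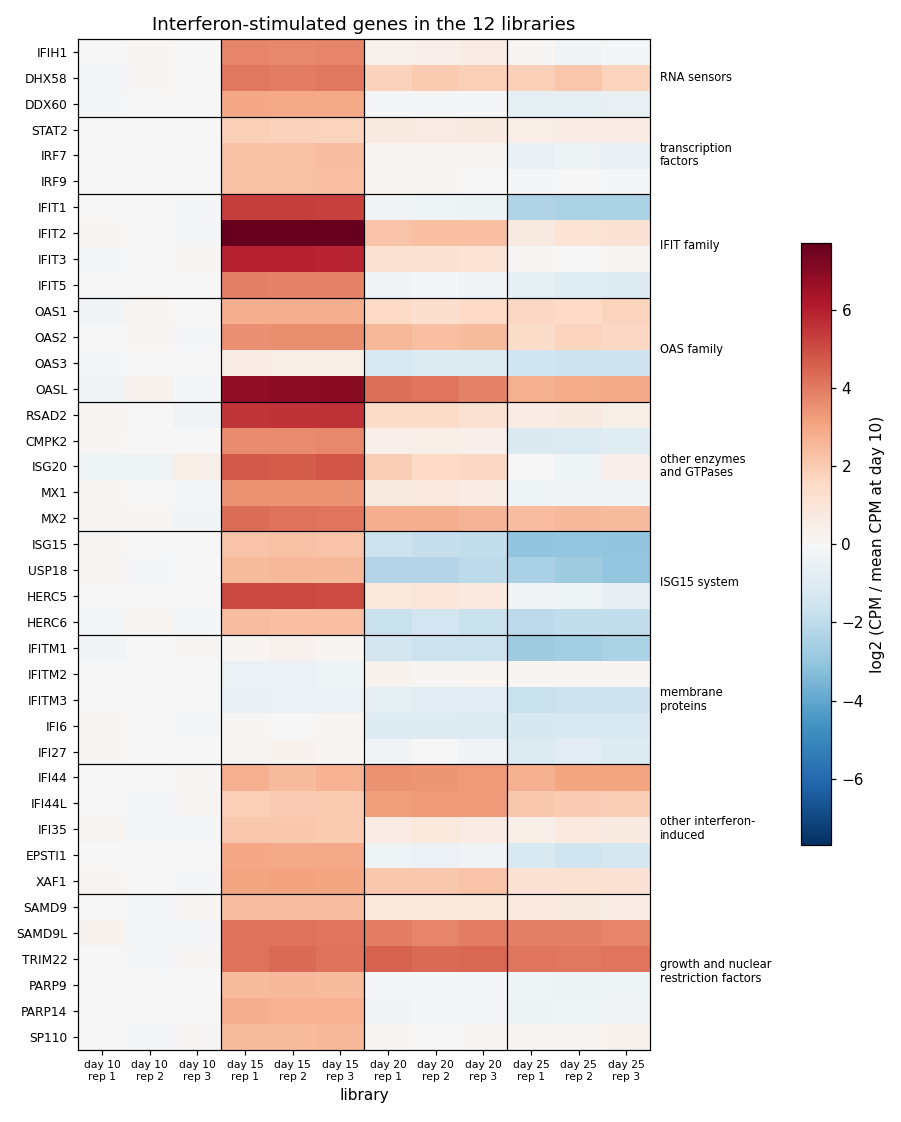
Levels of the 39 interferon-stimulated genes (rows, by role) in the 12 libraries (columns, by day), as log2 of CPM over the gene's mean CPM at day 10. Nearly all rows are red in the 3 day 15 libraries; the membrane proteins and OAS3 are nearest 0 there, and TRIM22, SAMD9L, IFI44 and OASL stay red at days 20 and 25.

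At day 15, set against day 10, 37 of the 39 were higher and 2 lower, and 42.4% and 30.8% of all tested genes were called in these directions, 73.2% in all. Of the 37, 33 differed at least 2-fold, as did 28.2% of all tested genes in that direction, and neither of the 2 that were lower did (14.7% of all tested genes). The median log2 fold change was 2.79 over the members and 0.20 over all tested genes. The libraries of the 2 days did not overlap for 38 members, IFI6 being the exception, and for 74.3% of all tested genes.

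The IFIT family, whose proteins bind viral RNA and block its translation, led the rise with all 4 members higher and a median of 5.60. IFIT2 had 1382, 1355 and 1368 CPM at day 15, against 7.30, 6.63 and 6.14 CPM at day 10, which is 204-fold (log2 7.67 ± 0.06, adjusted p = 5.6e-42). IFIT3 had 1685, 1694 and 1638 CPM at day 15, against 25.2, 27.1 and 31.4 CPM at day 10 (log2 5.91 ± 0.05, adjusted p = 1e-38). IFIT1 had 2508, 2503 and 2463 CPM at day 15, against 65.6, 65.6 and 59.0 CPM at day 10 (log2 5.29 ± 0.04, adjusted p = 1.6e-51). In each of these the day 15 libraries were all far above the day 10 libraries. IFIT5 averaged 322 ± 6.71 CPM at day 15 and 22.4 ± 0.848 CPM at day 10. About 7.5% of the 50-base stretches of IFIT2 also occur in other annotated transcripts, mostly an overlapping one, so its counts may include reads from there.

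Antiviral enzymes rose as well. OASL, an OAS-like protein that enhances RIG-I signalling, had 93.4, 97.7 and 101 CPM at day 15, against 0.699, 1.00 and 0.743 CPM at day 10 (log2 6.87 ± 0.13, adjusted p = 6.5e-38). OAS1 and OAS2, which make the second messenger that activates RNase L, rose by 2.79 and 3.54 on the log2 scale, and OAS3 by 0.54. RSAD2 (viperin), which makes a chain-terminating nucleotide, had 274, 292 and 283 CPM at day 15, against 7.11, 6.02 and 5.06 CPM at day 10 (log2 5.54 ± 0.07, adjusted p = 5.9e-42). Both genes had day 15 libraries far above every day 10 library. CMPK2, a mitochondrial nucleotide kinase, rose by 3.65, the exonuclease ISG20 by 4.78, and the dynamin-like GTPases MX1 and MX2 by 3.45 and 4.17.

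The ISG15 system attaches and removes a ubiquitin-like protein. HERC5, its ligase, had 708, 687 and 680 CPM at day 15, against 21.2, 20.5 and 19.8 CPM at day 10 (log2 5.08 ± 0.06, adjusted p = 2.5e-42). ISG15 itself averaged 980 ± 18.2 CPM at day 15 and 212 ± 9.33 CPM at day 10 (log2 2.21 ± 0.04). USP18, which removes ISG15 and also blocks the type I receptor, averaged 218 ± 4.58 CPM at day 15 and 39.5 ± 2.56 CPM at day 10 (log2 2.47 ± 0.06). HERC6, grouped here with HERC5 by name only, rose by 2.31. Of the 50-base stretches of USP18, 23.4% also occur in other transcripts, chiefly its near copy USP41, so its level is uncertain.

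The sensors and transcription factors of the pathway rose with their targets. IFIH1 averaged 391 ± 7.27 CPM at day 15 and 29.7 ± 1.75 CPM at day 10 (log2 3.72 ± 0.06). DHX58 (LGP2), its regulator, rose by 4.02 and the helicase DDX60 by 2.93. STAT2, IRF7 and IRF9, the members that transmit the signal, rose less, by 1.76, 2.30 and 2.28. IRF9 shares 43.6% of its 50-base stretches with other transcripts, mainly a read-through one, so its level is uncertain. All 6 restriction factors rose, with TRIM22 at 4.25, SAMD9L at 4.18 and PARP14 at 2.73 on the log2 scale. The 5 other interferon-induced genes, IFI44, IFI44L, IFI35, EPSTI1 and the apoptosis factor XAF1, rose by 1.94 to 3.06.

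The small membrane proteins did not share the rise. IFITM3, which blocks virus entry at endosomes, had 212, 219 and 225 CPM at day 15, against 302, 296 and 312 CPM at day 10 (log2 -0.47 ± 0.04, adjusted p = 3.6e-14). IFITM2 had 60.1, 61.1 and 64.7 CPM at day 15, against 84.2, 82.0 and 81.4 CPM at day 10 (log2 -0.41 ± 0.05, adjusted p = 8.7e-10). The day 15 libraries were all below the day 10 libraries for both. IFITM1, IFI27 and IFI6 were called higher, at log2 0.23 ± 0.10 (adjusted p = 0.041), 0.22 ± 0.08 (0.012) and 0.09 ± 0.04 (0.04), and with scaling by library size all 3 were lower, at -0.30, -0.31 and -0.45. The IFITM1 call was also lost without day 10 replicate 1 (log2 0.14), day 10 replicate 2 (0.25) or day 15 replicate 2 (0.17), and the IFI27 call without day 10 replicate 3 (0.19). With no filter, and with the libraries of the 2 days alone, both calls were lost and the changes were near 0, at 0.027 and 0.051 for IFITM1 and 0.016 and 0.040 for IFI27. The IFITM1 call was lost as well with DESeq2 (adjusted p = 0.0719) and without mitochondrial, ribosomal protein and haemoglobin genes (0.0538). That of IFI6 was lost with these (0.109 and 0.0819), and without day 10 replicate 2 or 3, day 15 replicate 3, day 20 replicate 1 or 2, or any day 25 replicate (0.04 to 0.08). With no filter and with the 2 days alone IFI6 was instead called lower, at -0.12 (adjusted p = 0.0037) and -0.094 (0.032). With library-size scaling OAS3 was at 0.00 and no longer called, while the other members kept their direction. IFITM1, IFITM2 and IFITM3 share 32.0%, 34.1% and 17.4% of their 50-base stretches, mostly with each other, so reads may be split between them.

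**Figure D2:**
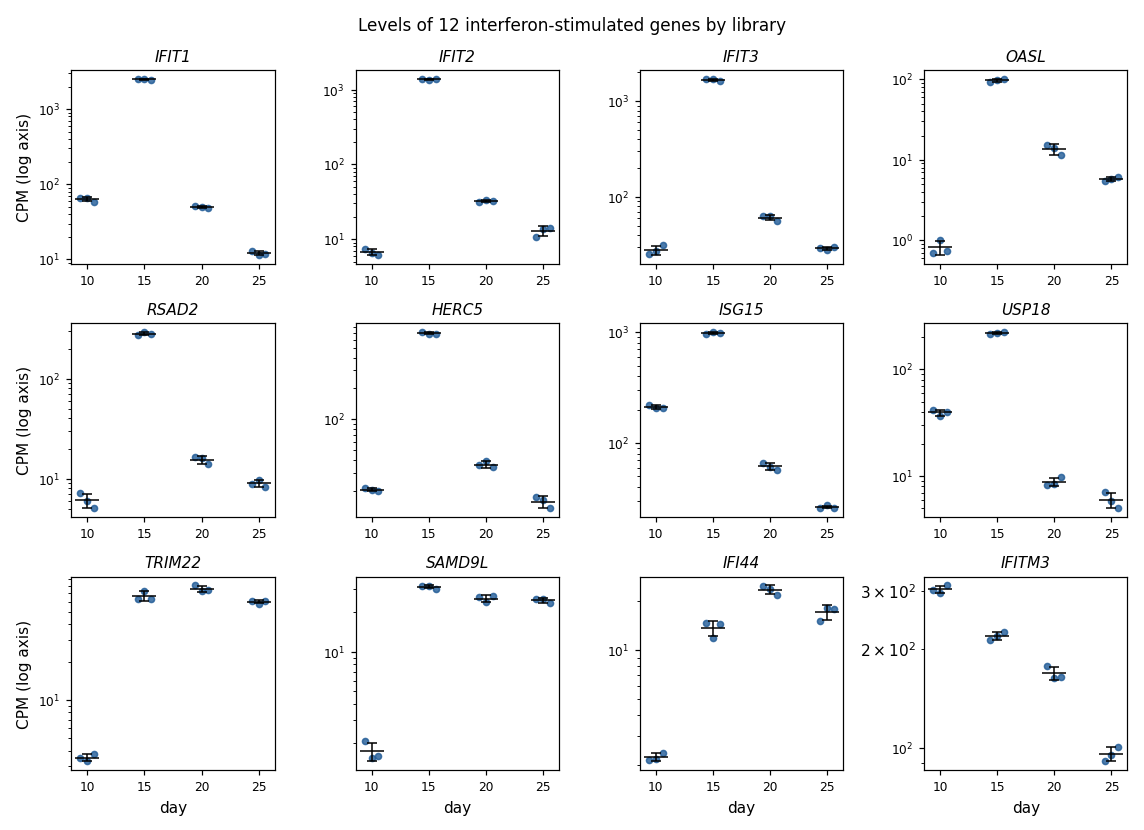
CPM of 12 interferon-stimulated genes in each library (points; log axis, differing between panels) by day, with the mean and SD of 3 libraries a day. IFIT1, IFIT2, IFIT3, RSAD2, HERC5, ISG15 and USP18 have a single high day, day 15; TRIM22 and SAMD9L stay near their day 15 level, IFI44 is highest at day 20 and IFITM3 declines throughout.

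At day 20, set against day 15, 35 of the 39 were lower and 4 higher, where 36% and 40.6% of all tested genes were called in these directions, 76.6% in all. Of the 35, 31 differed at least 2-fold, as did 22.2% of all tested genes in that direction, and of the 4 that were higher 1 did (23.7% of all). The median log2 fold change was -2.21 over the members and 0.10 over all tested genes. Libraries of the 2 days did not overlap for 38 members, TRIM22 being the exception, and for 78.3% of all tested genes.

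The IFIT family again changed most, with all 4 members lower and a median of -5.09. IFIT1 had 52.1, 50.5 and 48.7 CPM at day 20, against 2508, 2503 and 2463 CPM at day 15 (log2 -5.63 ± 0.04, adjusted p = 1.5e-52). IFIT2 had 31.1, 33.0 and 32.7 CPM at day 20 and IFIT3 63.0, 63.2 and 56.8 CPM, with log2 changes from day 15 of -5.41 ± 0.05 and -4.78 ± 0.05. The day 20 level was 2.03% of the day 15 level for IFIT1, 2.36% for IFIT2 and 3.65% for IFIT3. USP18 had 8.33, 8.37 and 9.71 CPM at day 20, against 213, 219 and 223 CPM at day 15 (log2 -4.63 ± 0.07, adjusted p = 1.3e-40), and all 3 were below its day 10 libraries. HERC5 had 35.5, 38.9 and 33.8 CPM at day 20 (log2 -4.26 ± 0.05 against day 15) and RSAD2 16.4, 15.9 and 13.9 CPM (log2 -4.20 ± 0.07), also far below every day 15 library. ISG15 and HERC6 fell by 4.0 and 3.94 on the log2 scale.

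Members with smaller falls kept a larger share of their day 15 level. STAT2 was at 47.0% of it at day 20, OAS2 at 46.3%, XAF1 at 52.2%, OAS1 at 39.4% and MX2 at 37.1%. The SAMD9L level, 25.5 ± 1.45 CPM at day 20 and 31.3 ± 0.803 CPM at day 15, was called lower (log2 -0.30 ± 0.09, adjusted p = 0.0019), but with library-size scaling it was higher (0.32) and with no filter it was not called (-0.063). SAMD9L encodes a growth-restraining protein. IFITM3 and IFI27, lower here at -0.38 and -0.37, were likewise higher with that scaling, at 0.24 and 0.25, and IFI27 was not called with no filter (-0.13).

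IFI44L, IFI44, IFITM2 and TRIM22 went the other way. IFI44L had 38.3, 40.3 and 39.6 CPM at day 20, against 14.3, 15.9 and 16.6 CPM at day 15 (log2 1.34 ± 0.09, adjusted p = 3.3e-17). IFI44, its neighbour and relative, had 24.8, 23.5 and 21.8 CPM at day 20, against 14.6, 11.9 and 14.3 CPM at day 15 (log2 0.77 ± 0.11, adjusted p = 2.5e-08). In both genes all day 20 libraries were above all day 15 libraries. IFITM2 had 98.4, 89.0 and 91.1 CPM at day 20, against 60.1, 61.1 and 64.7 CPM at day 15 (log2 0.58 ± 0.05, adjusted p = 4.6e-14). TRIM22, a ubiquitin ligase, had 80.7, 73.3 and 73.9 CPM at day 20, against 63.5, 73.4 and 62.6 CPM at day 15, so the days overlapped (log2 0.19 ± 0.06, adjusted p = 0.004). Of its 50-base stretches 12.1% also occur in other transcripts.

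At day 25, set against day 20, the decline went on at a smaller scale, with 32 members lower, 2 higher and 5 not called. Of all tested genes 25.1% and 24.5% were called in these directions, and 49.7% either way. The median log2 fold change was -0.56 over the members and -0.03 over all tested genes, and 11 of the 32 were at least 2-fold lower, beside 6.86% of all tested genes, and no member was at least 2-fold higher (6.7% of all). Libraries of the 2 days did not overlap for 35 members and 57% of all tested genes. IFIT1 had 12.9, 11.6 and 11.9 CPM at day 25, against 52.1, 50.5 and 48.7 CPM at day 20 (log2 -2.06 ± 0.05, adjusted p = 1.3e-32). CMPK2 had 20.6, 21.4 and 23.0 CPM at day 25, against 57.8, 58.8 and 57.4 CPM at day 20 (log2 -1.42 ± 0.05, adjusted p = 2.8e-27). Both genes had all day 25 libraries below those of day 20. IFI44L returned to 17.1, 15.7 and 15.2 CPM at day 25 (log2 -1.30 ± 0.09), after its peak at day 20. IFIT2 had 10.6, 13.8 and 14.2 CPM at day 25, against 31.1, 33.0 and 32.7 CPM at day 20 (log2 -1.32 ± 0.06). OASL had 5.45, 5.79 and 6.15 CPM at day 25, against 15.3, 13.9 and 11.4 CPM at day 20 (log2 -1.22 ± 0.10). ISG15 had 26.0, 27.3 and 26.1 CPM at day 25, against 66.1, 61.1 and 57.0 CPM at day 20 (log2 -1.21 ± 0.05). The libraries of the days did not overlap in any of these genes.

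OAS1 and SP110, a nuclear body protein, were called higher at day 25. OAS1 had 56.2, 54.0 and 59.3 CPM at day 25, against 52.7, 45.8 and 52.4 CPM at day 20 (log2 0.17 ± 0.06, adjusted p = 0.023). SP110 had 35.6, 34.7 and 39 CPM at day 25, against 33.5, 30.8 and 33.7 CPM at day 20 (log2 0.16 ± 0.06, adjusted p = 0.026). The 2 sets of libraries lay close together without overlap. Both calls were lost without day 20 replicate 2, at 0.11 for OAS1 and 0.12 for SP110, without day 25 replicate 3, at 0.13 and 0.11, and with library-size scaling, at 0.00 and -0.01. That of SP110 was lost with no filter (0.13) and with the 2 days alone (0.15) too. The call of STAT2, lower at -0.13, was lost without day 25 replicate 1 (-0.10).

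Day 25 set against day 10 asks where the genes ended after the rise and fall. Of the 39, 17 were higher at day 25, 19 lower and 3 not called (IFIH1, IFIT3 and ISG20), beside 38.6% and 36% of all tested genes called higher and lower, and 74.5% either way. The median was -0.09 over the members and 0.02 over all tested genes, and 10 differed at least 2-fold in each direction. Of all tested genes 26.5% were at least 2-fold higher and 16.5% at least 2-fold lower, so the members' 2-fold rises lay near the share of all genes. Libraries of the 2 days did not overlap for 35 members and 77.3% of all tested genes.

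TRIM22 had the largest lasting rise, with 60.6, 57.8 and 61.2 CPM at day 25, against 3.49, 3.29 and 3.75 CPM at day 10 (log2 4.10 ± 0.08, adjusted p = 2.9e-36). SAMD9L had 25.3, 25.1 and 23.5 CPM at day 25, against 2.06, 1.56 and 1.59 CPM at day 10 (log2 3.83 ± 0.12, adjusted p = 1.1e-29). IFI44 had 15.1, 18.1 and 17.9 CPM at day 25, against 2.13, 2.16 and 2.36 CPM at day 10 (log2 2.94 ± 0.13, adjusted p = 1.3e-23). Each had day 25 libraries far above those of day 10. OASL (2.80), MX2 (2.44), IFI44L (1.97), DHX58 (1.89), OAS1 (1.61), OAS2 (1.58) and XAF1 (1.13) were also at least 2-fold higher. IFIT2, SAMD9, IFI35, RSAD2, STAT2, SP110 and IFITM2 were higher by less, from 0.15 to 0.95, and with library-size scaling SP110 (0.12) and IFITM2 (0.07) were not called.

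All 4 genes grouped here with the ISG15 system, HERC6 by name only, ended below day 10, with a median of -2.33. ISG15 had 26.0, 27.3 and 26.1 CPM at day 25, against 222, 206 and 206 CPM at day 10 (log2 -3.0 ± 0.05, adjusted p = 7.7e-41). USP18 had 7.03, 5.86 and 5.06 CPM at day 25, against 42.0, 36.9 and 39.6 CPM at day 10 (log2 -2.72 ± 0.08, adjusted p = 2.5e-30). IFITM1 had 3.47, 3.83 and 4.23 CPM at day 25, against 20.4, 24.0 and 25.0 CPM at day 10 (log2 -2.59 ± 0.12, adjusted p = 4.2e-23). No library of day 25 reached the day 10 range in these genes. IFIT1 (-2.39), HERC6 (-1.94), IFITM3 (-1.66) and OAS3 (-1.59) were lower too. IRF9, called lower at -0.11 (adjusted p = 0.036), had overlapping libraries, and its call was lost without day 10 replicate 1 (-0.11, adjusted p = 0.0617) or 3 (-0.08) or day 25 replicate 1 (-0.08) or 3 (-0.10). It was lost too with DESeq2, limma-voom, no filter, the stricter filter, the 2 days alone and equal depth, at adjusted p from 0.054 to 0.0807. IFIT3, not called, was called higher without day 10 replicate 3 (0.15), and IFIH1 lower without day 25 replicate 1 (-0.18) and with library-size scaling (-0.17).

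**Figure D3:**
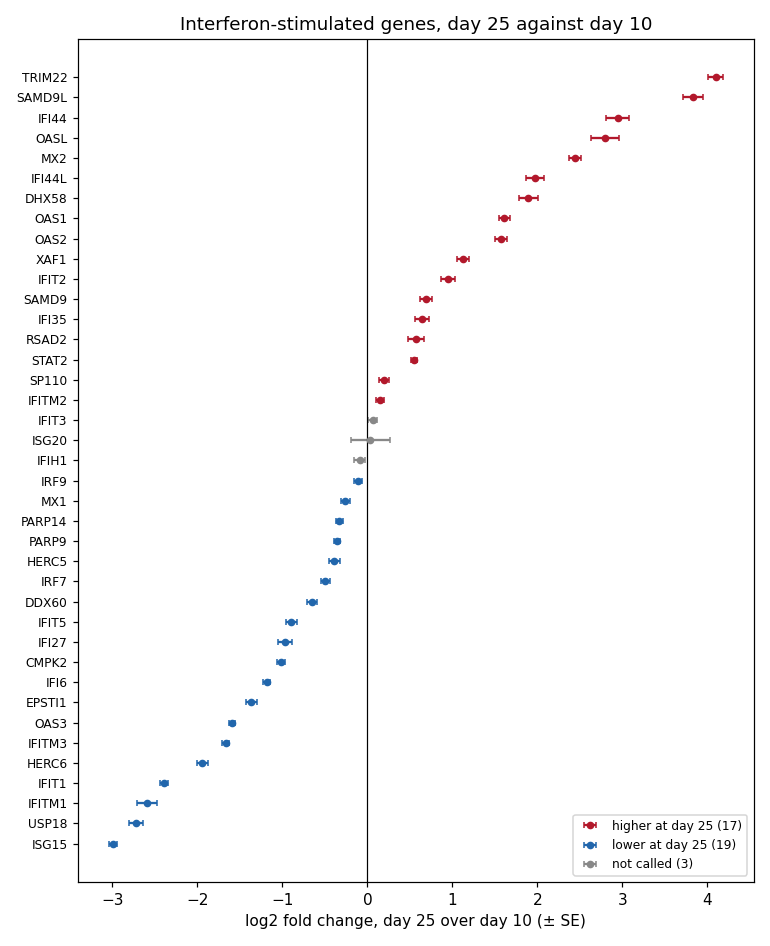
Log2 fold change at day 25 over day 10 (x axis, ± SE, edgeR, 3 libraries a day) for the 39 genes in order of size. TRIM22 (4.10), SAMD9L (3.83) and IFI44 (2.94) stand at the top and ISG15 (-3.0), USP18 (-2.72) and IFITM1 (-2.59) at the bottom.

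On a scale per transcript length (RPKM over the merged exons of GENCODE 29), the order of levels changed with the day. IFI6, a small membrane protein, had the highest level at day 10 (533 RPKM), ahead of IFITM3 (225) and ISG15 (225). At day 15 ISG15 was highest with 1041 RPKM, followed by IFIT3 (634), IFI6 (566) and IFIT1 (540 RPKM). IFI6 led again at day 20 (261 RPKM) and at day 25 (234 RPKM), with IFITM3 next at 125 and 71.0 RPKM. ISG20 was the lowest at days 10, 20 and 25, and IFI44L at day 15 (1.52 RPKM).

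Several members are neighbours in the genome (GRCh38, GENCODE 29). IFIT2, IFIT3, IFIT1 and IFIT5 lie in 1 cluster on chromosome 10, from 89283694 to 89421001, and all had their highest level at day 15. At day 25 against day 10 IFIT2 was higher, and IFIT1 and IFIT5 were lower. OAS1, OAS3 and OAS2 lie on chromosome 12 from 112906777 to 113011723, and there OAS1 and OAS2 were higher at day 25 than at day 10 while OAS3, between them, was lower. On chromosome 21 MX2 (41361943 to 41409390) was higher at day 25 than at day 10, and MX1 (41420304 to 41459214) was lower, at -0.26. CMPK2, on the minus strand, and RSAD2, on the plus strand, overlap at their starts on chromosome 2. At day 25 against day 10 CMPK2 was lower (-1.01) and RSAD2 higher (0.57). SAMD9 and SAMD9L, side by side on chromosome 7 from 93099513 to 93148369, stood at 0.69 and 3.83 in the same comparison. IFI44L and IFI44, adjacent on chromosome 1 from 78619922 to 78664078, were both highest at day 20. 

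Among the ligands, interferon-β was the one counted at more than a trace. IFNB1 had 17.6, 15.3 and 17.4 CPM at day 15, against 0, 0.0502 and 0 CPM at day 10, from 1167 counts at day 15 and 2 at day 10. The ratio was 850, with a 95% exact interval of 235 to 7031 that covers counting error at most. It treats every count as independent, which the counts may not be, so it may be too narrow. Both day 10 counts lay in replicate 2. At day 20 it had 56 counts over the 3 libraries (log2 -4.91 ± 0.27 against day 15, adjusted p = 9e-20). At day 25 it had 0 counts, so day 15 was at least 586.5-fold higher, against a floor of 3 counts over the day. The day 15 libraries were thus the high ones for the ligand as for most members. IFNL1, a type III interferon, had 24 counts at day 15 and 4 at day 10, with 0 at days 20 and 25, and the type II interferon IFNG had 3 counts at day 15 and 0 at the other days. Of the 12 IFNA genes listed besides IFNA21, none had more than 2 counts on a day except IFNA1, with 12 at day 25. IFNA21 had at most 7 counts on a day, and IFNE, IFNK, IFNW1, IFNL2 and IFNL3 at most 10.

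The receptors and their kinases took different courses. Of 9 receptor and Janus kinase genes, 7 were higher and 1 lower in the first step (day 15 against day 10), 7 and 2 in the second (day 20 against day 15), 6 and 1 in the third (day 25 against day 20), and 7 and 2 overall (day 25 against day 10). IFNAR1, a chain of the type I receptor, averaged 35.3 ± 3.85 CPM at day 10, 38.4 ± 3.47 at day 15, 102 ± 1.32 at day 20 and 170 ± 1.53 at day 25 (log2 2.28 ± 0.06 at day 25 over day 10). IFNAR2 rose by 1.81 and IFNLR1, the type III chain, by 7.86 over the same span. JAK2 was highest earlier, with 546, 543 and 531 CPM at day 15, against 72.2, 74.2 and 69.7 CPM at day 10 (log2 2.91 ± 0.05, adjusted p = 4.1e-36). At day 20 it was back to 43.6, 54.1 and 52.3 CPM (log2 -3.43 ± 0.05), and JAK1 changed by 1.5 and then -1.96. All 6 receptor chains of the list had their highest mean at day 25, and JAK1 and JAK2 at day 15.

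Of 12 other STAT and IRF genes, 8 rose and 2 fell in the first step, 6 and 6 in the second, 5 and 1 in the third, and 7 and 5 overall. For this list and the sensors below, the shares of all tested genes were 42.4% higher and 30.8% lower in the first step. They were 40.6% and 36% in the second, 24.5% and 25.1% in the third, and 38.6% and 36% at day 25 against day 10. IRF1, an activator that interferons induce, rose by 3.60 and fell by 2.51, and IRF2, its antagonist, rose by 3.03 and fell by 2.64. IRF8 and IRF5, factors of myeloid cells, did not turn back, and stood at 5.39 and 5.91 at day 25 over day 10. Of 16 other sensors and adaptors tested, 12 rose and 1 fell in the first step, 8 and 7 in the second, 7 and 5 in the third, and 9 and 5 overall. RIGI had 565, 550 and 553 CPM at day 15, against 42.2, 49.6 and 44.8 CPM at day 10 (log2 3.61 ± 0.05), and 28.7, 29.3 and 28.1 CPM at day 20 (log2 -4.28 ± 0.05 against day 15). Its adaptor MAVS rose by 1.06 and fell by 2.10. STING1, the adaptor of DNA sensing, fell by 1.10 at day 15, and the RNA receptor TLR8 rose by 10.63 at day 25 over day 10.

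Of 12 inhibitors, 7 were higher and 4 lower in the first step, and 5 and 6 in the second. In the third 3 were higher and 5 lower, and at day 25 against day 10 it was 8 and 4. For this list and the type II targets below, the shares of all tested genes were 42.4% higher and 30.8% lower in the first step. They were 40.6% and 36% in the second, 24.5% and 25.1% in the third, and 38.6% and 36% at day 25 against day 10. SOCS1, which blocks the Janus kinases, rose by 2.67 at day 15 and fell by 0.99 at day 20. SOCS3 rose by 3.17 at day 15 and stood at 5.16 at day 25 over day 10. Of 19 tested targets of type II interferon, 17 were higher and 2 lower in the first step, 8 and 8 in the second, 7 and 4 in the third, and 13 and 4 overall. The chemokine CXCL10 averaged 54.6 ± 1.66 CPM at day 15 and 0.548 ± 0.0512 CPM at day 10 (log2 6.64 ± 0.16), fell by 3.32 at day 20 and by 5.41 at day 25. CXCL11 had 1639 counts at day 15 and 2 at day 10. TAP1, a peptide transporter, rose by 4.17 and fell by 3.0, whereas the GTPase GBP2 and the tRNA ligase WARS1 rose on, to 7.5 and 3.06 at day 25 over day 10.

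A list of 35 other interferon-stimulated genes had 32 higher and 2 lower in the first step (median 1.73), 7 and 27 in the second (median -1.70), 9 and 15 in the third, and 17 and 15 overall. For this list and the NF-kB targets below, the shares of all tested genes were 42.4% higher and 30.8% lower in the first step. They were 40.6% and 36% in the second, 24.5% and 25.1% in the third, and 38.6% and 36% at day 25 against day 10. The helicase-like DDX60L rose by 4.03 and fell by 2.6, and the coactivator HELZ2 rose by 3.16 and fell by 3.05. NT5C3A, a nucleotidase, rose by 2.23 and fell by 4.28. Other genes of the list rose at day 20: SIGLEC1, a macrophage lectin, by 2.51, and the tether BST2 by 2.13 after a fall of 0.27 at day 15. Of 19 targets of NF-kB, the factor that acts beside the IRFs in infection, all were higher in the first step (median 3.93), 9 were higher and 9 lower in the second, 5 and 14 in the third, and 16 and 2 overall. The inhibitor NFKBIA rose by 3.86 and fell by 2.10, but CXCL8 rose by 4.43 and again by 1.76.

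**Figure D4:**
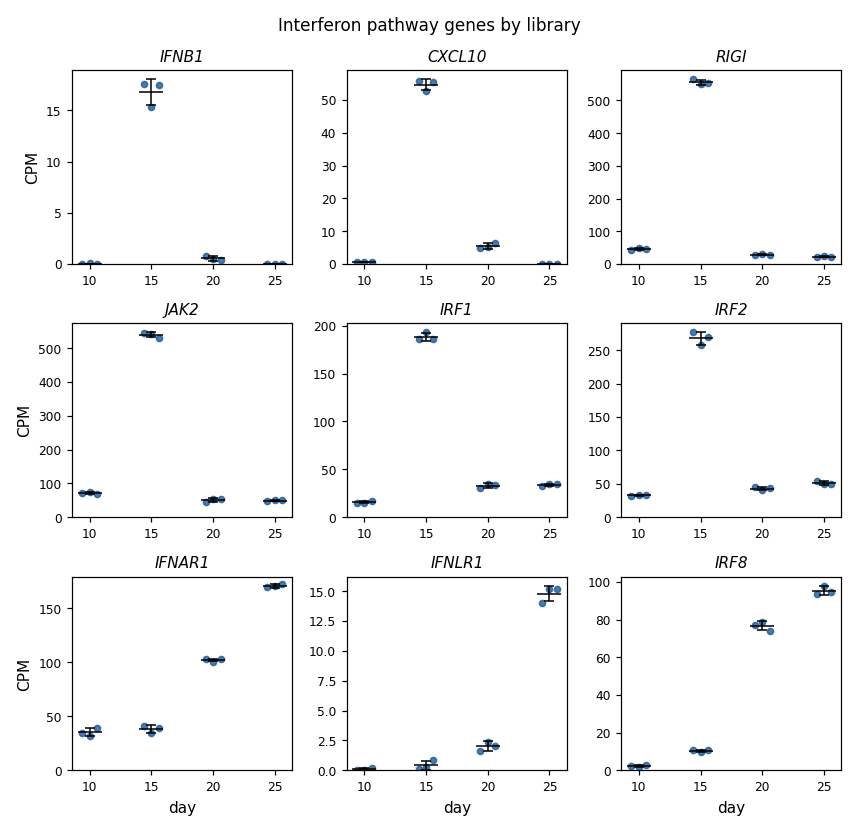
CPM of 9 genes of the interferon pathway in each library (points; linear axis from 0, differing between panels) by day, with mean and SD of 3 libraries a day. IFNB1, CXCL10, RIGI, JAK2, IRF1 and IRF2 are highest in the day 15 libraries, and IFNAR1, IFNLR1 and IRF8 in the day 25 libraries.

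Markers of other cell types moved over the same days. The 16 megakaryocyte markers summed to 8937 to 9162 CPM in day 10 libraries, 36440 to 37302 in day 15, 721 to 723 in day 20 and 257 to 267 in day 25 libraries. All 16 were higher at day 15 and all 16 lower at day 20. Of all tested genes 42.4% were higher and 30.8% lower at day 15, and 36% were lower at day 20. None of the 16 was at 0 on any day. Eosinophil and mast cell markers, 10 of 10 higher at day 15, summed to 319 to 323, 9653 to 10243, 6008 to 6213 and 1377 to 1418 CPM over the 4 days. Endothelial markers, 3 of 8 higher and 5 lower at day 15, summed to 1359 to 1409, 3472 to 3547, 399 to 401 and 311 to 325 CPM, and neither list had a gene at 0. The median log2 fold change of the endothelial markers at day 15 was -1.025, so their higher sum there rests on the 3 that rose. Plasmacytoid dendritic cells are known for making interferon, and their markers had 7 of 10 higher and 1 lower at day 15 and summed to 59.9 to 65.1, 346 to 362, 158 to 164 and 168 to 177 CPM. Of the day 15 sum, PTCRA gave 183 ± 7.40 CPM and TCF4 136 ± 3.17 CPM, and CLEC4C was at 0 at day 10. The 12 monocyte and macrophage markers took another course, summing to 153 to 164, 1390 to 1476, 6197 to 6379 and 7632 to 7918 CPM. The 12 neutrophil markers summed to 446 to 466, 6268 to 6583, 19560.5 to 20075 and 10949 to 11061 CPM, with S100A12, CEACAM8 and CAMP at 0 at day 10. In both lists all 12 were higher at day 15 and again at day 20, where 40.6% of all tested genes were higher. Stromal markers and epithelial and hepatic markers had their highest sums at day 20, at 6916 to 7028.5 and 1676 to 1738 CPM. The part of these lists in the course of the interferon-stimulated genes was not tested.

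**Figure D5:**
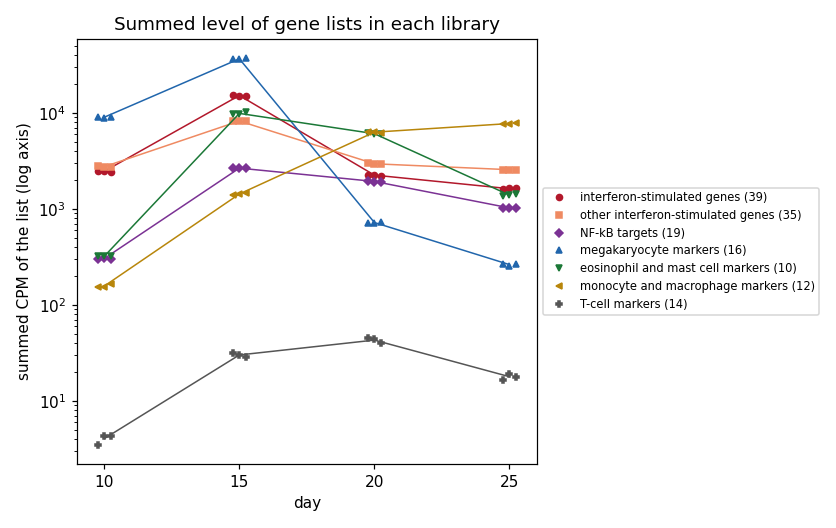
Summed CPM of 7 gene lists (number of genes in brackets) in each library (points; log axis) by day, with lines through the daily means. The interferon-stimulated genes and the megakaryocyte markers are both highest at day 15 and lowest at day 25, whereas the monocyte and macrophage markers keep rising.

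The ISRE letters were commoner in the promoters of these genes than in promoters at large. Windows from 250 bases before to 50 after the start were given for 30 of the 39, and 21 of the 30 (70.0%) held the ISRE letters on either strand, against 4.38% of the 27305 genes in the table. The interferon-γ activated site, searched as TTCNNNGAA on both strands, was in 33.3% of the 30 and 9.38% of all. The windows held 41 distinct ISRE matches, and 14 of the 21 genes had more than 1. The letters were in 65.4% of the other interferon-stimulated genes, 66.7% of the type II targets and 6.25% of the NF-kB targets with a window, and in none of the 8 receptor and kinase genes. STAT2, IRF9, OAS1, CMPK2, HERC6, IFI35, XAF1, SAMD9L and SP110 had a window without these letters, which says nothing of sites elsewhere. DHX58, IRF7, IFIT2, OAS2, OASL, MX2, USP18, IFITM2 and TRIM22 were not looked up. Median log2 fold changes of the 21 genes with the letters and the 9 without were 2.73 and 2.46 in the first step, -2.90 and -1.34 in the second, -0.81 and -0.13 in the third, and -0.39 and 0.55 overall. These medians are a description. IFITM3, which fell at day 15, is among the 21.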

How the data were processed

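Libraries were made by ligation-mediated sequencing of total RNA and read as single reads, per the labels' protocols. The authors deposited unnormalized read counts for each gene in each library. The build is GRCh38 per the submitters' processing notes. Aligner, counter and use of strand: not given in the sources used here. Thus overlapping genes on opposite strands (38.3% of the exons of XAF1, 21.3% of IFITM3 and 18.4% of SP110) cannot be told apart. Every library held more genes counted 2 times than 1 time, so counts may not be independent. Intervals and floors treat each count as independent and cover counting error at most. Intervals may thus be too narrow and floors too low.

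The analysis used edgeR 4.0.16 (R 4.3.3): filterByExpr with a minimum count of 10, TMM scaling, 1 robust quasi-likelihood fit to all 12 libraries, and 4 comparisons by day, at a common BCV (biological coefficient of variation) of 6.03%. Replicates differed by more than counting noise (chi-square per degree of freedom 3.50 to 5.17). The members and lists were chosen with earlier results of these data known. The genes given with every library were, per comparison, the 6 largest called changes at 10 CPM or more and the members opposite to most, of which the smaller rises at day 25 over day 10 are summarised. Members were searched for shared 50-base stretches and exon overlaps in GENCODE 29, and promoters in RefSeq's table (GRCh38.p14). Alternatives were DESeq2 1.42.0 and its size factors, limma-voom (limma 3.58.1), library-size scaling, other filters and thresholds, equal depth, a replicate block, the compared days alone and leaving out each library. Figures used Python 3.11.15 and matplotlib 3.10.9. The reads themselves were not used here, and 1 gene of the pathway lists is counted there but not reported singly.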

Additional observations from a re-analysis of the deposited data

How the results depend on the processing

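The counts of members called higher or lower stayed within 1.5 times the reported ones under DESeq2, its size factors, limma-voom, the stricter filter, equal depth and the removal of mitochondrial, ribosomal protein and haemoglobin genes. A 2-fold minimum gave 0 lower at day 15 against day 10, 1 higher at day 20 against day 15, 0 higher and 11 lower at day 25 against day 20, and 10 each way for day 25 against day 10. Library-size scaling gave 5 lower at day 15, 7 higher at day 20 and 0 higher at day 25 against day 20. The last count was also 0 at an adjusted p under 0.01, and 1 without a filter or with the 2 days alone. That scaling moved the median of all genes to -0.32, 0.73 and -0.19 in the 3 steps, and those of the members to 2.26, -1.58 and -0.72, so the members' medians kept their directions relative to all genes. It split all genes 5917 higher to 9183 lower at day 15 (8562 to 6214 with TMM), 11719 to 4530 at day 20 (8197 to 7271) and 3414 to 7445 at day 25 against day 20 (4952 to 5071). No filter gave 7877 to 7380 and 9746 to 6334 in the first steps, and the 2 days alone 7080 to 7020 at day 15.

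Leaving out each library gave 35 to 37 higher and 2 lower at day 15, 4 higher and 35 lower at day 20, 0 to 2 higher and 31 to 32 lower at day 25 against day 20, 17 to 18 higher and 18 to 19 lower at day 25 against day 10, and 39 in the joint test. The count of 2 was 0 without day 20 replicate 2 or day 25 replicate 3. Same-numbered libraries did not deviate together (correlations from -0.016 to 0.016 over 18 pairs), which gives no sign of pairing by number. It cannot exclude pairing, since deviations that are only technical would hide it. With a replicate block the counts were 36 and 2, 4 and 35, 2 and 32, 17 and 19, and 39, with the call of IFI6 at day 15 lost.

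At an adjusted p under 0.01 the calls of IFITM1, IFI6 and IFI27 at day 15, OAS1 and SP110 at day 25 against day 20 and IRF9 at day 25 against day 10 were lost. Library-size scaling called IFITM2 (-0.19), IFI35 (-0.24), SAMD9 (-0.31) and SAMD9L (-0.21) lower at day 25 against day 20.

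Signs turned for small changes. At day 25 against day 20, DHX58 was at -0.15 with library-size scaling, -0.004 with no filter, -0.015 and -0.007 without day 20 replicate 1 or 3 and -0.11 without day 25 replicate 2, and its highest value without a library was 0.10. There IFITM2 was at 0.005 with DESeq2 size factors, 0.006 with DESeq2 and 0.024 without day 20 replicate 1 (lowest without a library -0.051), and SP110 at -0.008 with library-size scaling. At day 25 against day 10, IFIT3 was at -0.014 with that scaling and -0.004 without day 10 replicate 1 (highest without a library 0.15), and ISG20 at -0.039, -0.082, -0.11 and -0.18 with that scaling and without day 10 replicate 1, day 10 replicate 2 or day 25 replicate 3. At day 15 IFITM1, IFI6 and IFI27 were called lower with library-size scaling, at -0.30, -0.45 and -0.31. IFI6 was also called lower there with no filter (-0.12) and with the 2 days alone (-0.094). At day 20 IFITM3, IFI27 and SAMD9L were at 0.24, 0.25 and 0.32 with library-size scaling. The cause was not tested. At this depth, ligand genes at 3 counts or fewer on both days of a comparison could not be compared. For IFNB1, at 3 or fewer at days 10 and 25, only a ratio and a lower bound are given.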
